A study of Mus musculus with 4 samples.

Results

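Bone morphogenetic protein (BMP) ligands, their secreted antagonists and the Id genes that BMP signals switch on were followed in lung tumours of mice with and without CD109. The set comprised 10 genes: the ligands Bmp2, Bmp4, Bmp5, Bmp6 and Bmp7, the secreted BMP-binding proteins Grem1 and Bmper, and the targets Id1, Id2 and Id3. All array probes whose accession belongs to one of these genes were taken, which gave 13 of the 56594 probes read on the 4 arrays. Every one of the 13 passed the filter for testing, 12 were well above background on all 4 arrays, and the Bmp6 probe was well above background on 3.

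The tumours came from KP mice of the C57BL/6J strain, a model of lung adenocarcinoma in which Cre recombinase starts the tumours. The labels do not spell out the alleles of the model or the age of the mice. All 4 tumour samples, of both genotypes, had received Cre recombinase from an adenovirus placed in the trachea, 88 to 92 days before RNA was taken. The CD109-/- group comprised 1 male (replicate 1) and 1 female (replicate 2), and the CD109+/+ group comprised 2 females. The cell type in which the virus drives Cre, and the design of the CD109 deletion, are not given in the sources used here. RNA came from whole tumours, so fewer cells of a type and less RNA per cell cannot be told apart. The 4 samples were read on single-colour Agilent arrays of 1 slide, scanned in 1 session. The labels do not say whether replicate numbers pair arrays across genotypes, and the main test used no pairing.

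Values below are log2 of the processed signal minus the array's 75th percentile, so that 0 is the 75th percentile of that array. Differences are CD109-/- minus CD109+/+ with limma's standard error (SE, n = 2 per genotype). The 75th percentile itself lay at signals of 677 and 688 on the CD109-/- arrays and 557 and 669 on the CD109+/+ arrays. Cd109 itself read -7.97 and -7.86 on the CD109-/- arrays, neither well above background, against -3.69 and -4.65 on the CD109+/+ arrays, at least 2.92-fold lower in CD109-/- tumours (limma adjusted p = 0.297). Whether the deletion removed the part under this probe was not examined. Lung epithelium was present on every array, with the surfactant gene Sftpc at 8.93 and 8.80 in CD109-/- tumours, against 9.12 and 8.97 in CD109+/+ tumours. By their sexes the CD109-/- replicates came from different mice, whereas the labels do not say this of the CD109+/+ replicates, whose spread may be technical. For a single probe with 2 arrays per genotype, the smallest two-sided p of an exact permutation test is 0.333.

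BMPs are secreted members of the TGF-beta superfamily that bring type I and type II serine/threonine kinase receptors together, upon which SMAD1, SMAD5 and SMAD9 are phosphorylated and enter the nucleus with SMAD4. The Id genes are the classic direct targets of these SMADs and encode helix-loop-helix proteins without a DNA-binding region, which hold E proteins away from E-box sequences. In the embryonic lung Bmp4 is expressed at the tips of the growing airways and shapes branching and the patterning of the epithelium. Secreted antagonists such as Gremlin 1 bind the ligands outside the cell and keep them from their receptors.

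The start regions of 5 of the genes are shown because SMAD-bound and E-box sequences are the usual DNA readout of this pathway. Each runs from 250 bases before to 50 bases after the annotated start, 5′ to 3′ on the gene's own strand, from RefSeq on GRCm38.p6. Sequences were found for 7 of the 10 genes. Capitals mark GGCGCC, a GC-rich sequence bound by BMP-activated SMADs, and CANNTG, the E-box, each searched on both strands. The marked sequences do not overlap each other.
Bmp4 (chr14:46390620-46390919, minus strand): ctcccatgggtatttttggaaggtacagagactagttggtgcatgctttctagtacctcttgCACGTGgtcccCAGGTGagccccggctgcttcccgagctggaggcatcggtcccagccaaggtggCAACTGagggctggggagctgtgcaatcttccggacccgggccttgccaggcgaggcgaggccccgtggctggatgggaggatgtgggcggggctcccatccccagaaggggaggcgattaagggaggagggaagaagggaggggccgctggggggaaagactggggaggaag
Grem1 (chr2:113758599-113758898, minus strand): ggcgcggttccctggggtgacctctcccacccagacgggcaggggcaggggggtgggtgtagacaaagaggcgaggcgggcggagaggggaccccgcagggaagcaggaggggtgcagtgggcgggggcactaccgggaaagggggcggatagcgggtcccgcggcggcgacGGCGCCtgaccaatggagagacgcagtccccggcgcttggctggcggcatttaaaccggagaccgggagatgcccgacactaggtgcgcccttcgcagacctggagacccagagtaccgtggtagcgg
Bmper (chr9:23222826-23223125, plus strand): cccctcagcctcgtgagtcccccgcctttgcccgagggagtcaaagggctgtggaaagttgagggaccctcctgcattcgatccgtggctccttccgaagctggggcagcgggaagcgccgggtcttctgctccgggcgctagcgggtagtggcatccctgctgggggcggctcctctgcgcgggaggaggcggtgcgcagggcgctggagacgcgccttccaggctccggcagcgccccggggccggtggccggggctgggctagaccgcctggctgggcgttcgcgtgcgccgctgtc
Id2 (chr12:25096043-25096342, minus strand): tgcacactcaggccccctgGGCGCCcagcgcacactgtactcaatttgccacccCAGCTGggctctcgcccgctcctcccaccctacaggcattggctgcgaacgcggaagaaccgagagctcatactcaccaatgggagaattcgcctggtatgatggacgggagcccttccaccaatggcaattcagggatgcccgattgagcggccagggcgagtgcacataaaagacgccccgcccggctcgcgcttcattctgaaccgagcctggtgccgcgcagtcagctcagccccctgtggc
Id3 (chr4:136143572-136143871, plus strand): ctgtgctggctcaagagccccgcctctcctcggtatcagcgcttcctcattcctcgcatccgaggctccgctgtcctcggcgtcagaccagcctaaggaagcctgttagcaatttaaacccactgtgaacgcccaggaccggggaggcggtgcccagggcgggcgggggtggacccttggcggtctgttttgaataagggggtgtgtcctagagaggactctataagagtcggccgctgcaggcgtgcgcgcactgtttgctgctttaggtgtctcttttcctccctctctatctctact
GGCGCC was found once in the Grem1 region, at position -78 from the start, and once in the Id2 region, at position -231, and 11.9% of all 32851 promoter windows of this length hold at least 1. The Bmp4 region held 3 E-boxes and the Id2 region 1, and 72.3% of all windows hold at least 1. Neither sequence was found in the Bmper or Id3 windows, which says only that these letters do not occur there. These matches describe the windows and were not related to the signals.

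Among the 13 probes, the ligand Bmp4 had lower values and the antagonists Grem1 and Bmper higher values in CD109-/- tumours, while Id1 and Id3 varied mostly within genotypes. The number of member probes passing limma's Benjamini-Hochberg threshold of 0.05 over all 35769 tested probes was 0, as it was for the whole array (0% called). At an unadjusted p under 0.05 there were 2 of the 13, the brighter Bmp4 probe and the Grem1 probe, against 6.82% of all tested probes. Of these, Grem1 was higher and Bmp4 lower in CD109-/- tumours, against 3.89% and 2.94% of all tested probes. Leaving out CD109+/+ replicate 1 or CD109+/+ replicate 2 brought the number to 0, and it was 4 without CD109-/- replicate 1 (Bmp2, Bmp7, Grem1 and Id1). With an array left out its genotype has 1 array, which is assumed to vary like the other genotype, so such p-values carry no spread of their own for it. The 2 genotypes did not overlap for 6 of the 13 probes, 3 higher and 3 lower in CD109-/- tumours, against 37.7% of all tested probes (16.5% higher and 21.2% lower). The median difference was -0.15 over the 13 probes and -0.05 over all tested probes. For 13 probes these counts are near the shares of the whole array.

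**Figure D1:**
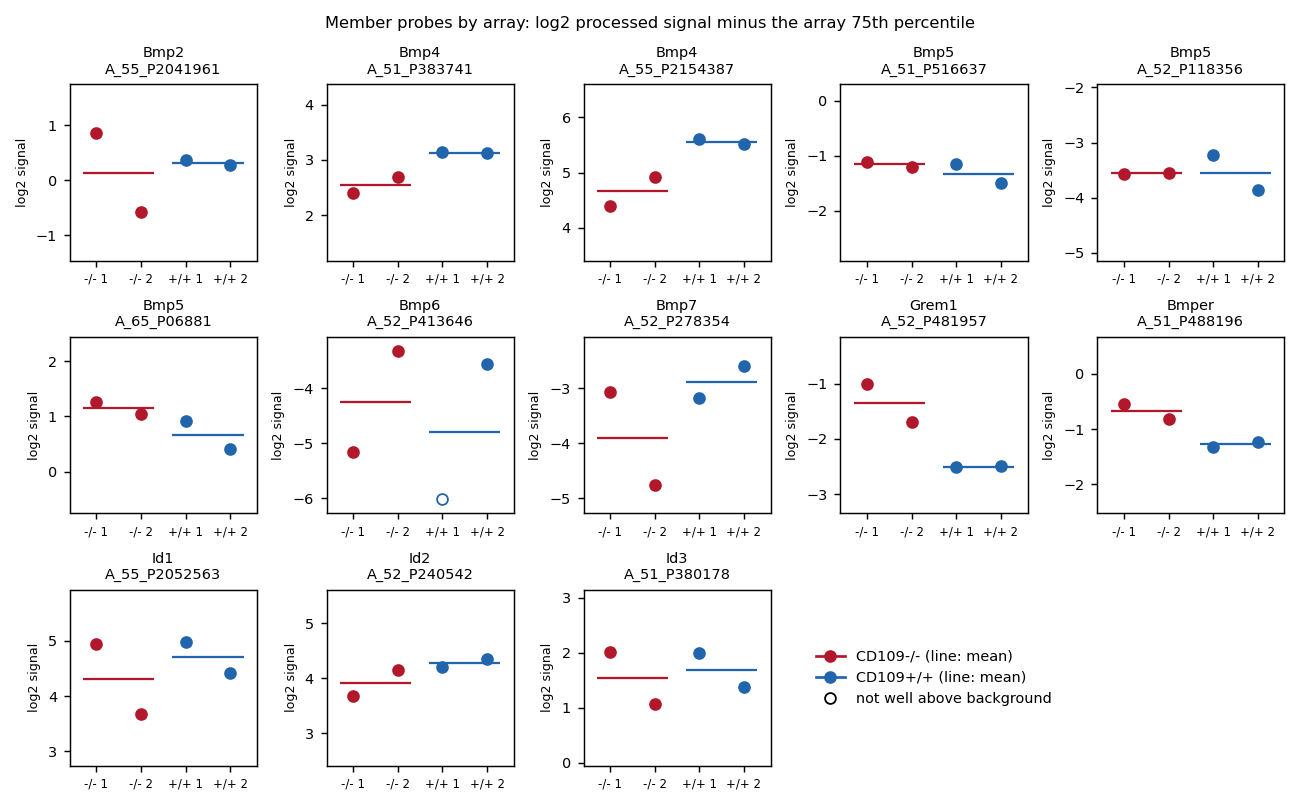
Log2 signal relative to the array's 75th percentile for each of the 13 member probes, with the CD109-/- arrays in red left of the CD109+/+ arrays in blue, a line at each genotype's mean (n = 2) and an open circle where a probe was not well above background. Both Bmp4 probes lie lower, and Grem1 and Bmper higher, on both CD109-/- arrays, whereas Id1 and Id3 are spread within each genotype.

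Bmp4, which binds the type I receptors encoded by Bmpr1a and Bmpr1b, was read by 2 probes of the same transcript accession. The brighter probe, A_55_P2154387, gave 4.39 and 4.92 in CD109-/- tumours, against 5.60 and 5.51 in CD109+/+ tumours. Both CD109-/- values lay below both CD109+/+ values. The means were 4.66 ± 0.38 in CD109-/- tumours, against 5.56 ± 0.07 in CD109+/+ tumours (SD, n = 2 each), a difference of -0.90 ± 0.28 or a 0.536-fold signal (unadjusted p = 0.0239 and adjusted p = 0.647 with limma). A difference at least this far downward was found for 3.15% of all tested probes. The dimmer Bmp4 probe, A_51_P383741, gave 2.40 and 2.69 in CD109-/- tumours, against 3.15 and 3.12 in CD109+/+ tumours. It showed the same order of arrays with a smaller difference of -0.59 ± 0.24 (95% interval -1.21 to 0.03, adjusted p = 0.740 with limma). On both Bmp4 probes the male CD109-/- array, replicate 1, was the lowest of the 4. Without it, which leaves females only, the differences were -0.63 and -0.44, and the unadjusted p of the brighter probe was 0.0864. With either CD109+/+ array left out, its unadjusted p was 0.107 or 0.0831 with limma.

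Alveolar type 2 cells are the surfactant-making epithelial cells of the lung. Of the 7 genes of their marker list, 3 had higher values in CD109-/- tumours, 0 had an unadjusted p under 0.05 with limma, and the median difference was -0.18. Its summed signal, in units of the 75th percentile, was 1088 and 1046 in CD109-/- tumours, against 1106 and 1103 in CD109+/+ tumours. The median of the 7 genes on each array lay on the other side, at 6.84 and 6.81 in CD109-/- tumours, against 6.57 and 6.62 in CD109+/+ tumours, so the direction of this list depends on the summary. The lung epithelial transcription factor gene Nkx2-1 was a member of this list that followed Bmp4 more closely, with 2.46 and 3.17 in CD109-/- tumours, against 3.46 and 3.40 in CD109+/+ tumours, chosen here after its values were seen. Its part in the Bmp4 values was not tested.

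Bmp2, the closest relative of Bmp4, gave 0.86 and -0.58 in CD109-/- tumours, against 0.36 and 0.27 in CD109+/+ tumours. The CD109-/- values stood on either side of the CD109+/+ values, and the difference of -0.18 ± 0.51 was within its error (95% interval -1.48 to 1.13). Its sign turned to 0.54 without CD109-/- replicate 2, and the females alone gave -0.90.

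Bmp5, Bmp6 and Bmp7 form the other large group of BMP ligands. Bmp5, which in mice is disrupted in the short ear mutant, was read by 3 probes. Its brightest probe, A_65_P06881, gave 1.26 and 1.04 in CD109-/- tumours, against 0.91 and 0.42 in CD109+/+ tumours. Here the CD109-/- values were the higher ones without overlap, with a difference of 0.49 ± 0.28 (95% interval -0.23 to 1.21, adjusted p = 0.790 with limma). The other 2 Bmp5 probes overlapped between genotypes and gave differences of 0.17 ± 0.25 and -0.01 ± 0.30, so the genotypes were apart at 1 of the 3 probes. The sign of the last of these turned to 0.030 with quantile normalization and to 0.027 with scaling to the median.

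Bmp6, best known for inducing hepcidin in the liver, lay close to the detection limit. Its probe gave -5.16 and -3.33 in CD109-/- tumours, against -6.01 (not well above background) and -3.57 in CD109+/+ tumours. Within each genotype 1 array was far below the other, and the difference of 0.54 ± 0.99 was within its error. Bmp7, an epithelial BMP required for kidney development, gave -3.07 and -4.75 in CD109-/- tumours, against -3.18 and -2.59 in CD109+/+ tumours. The low CD109-/- mean was set by replicate 2, and the genotypes overlapped. The Bmp7 difference of -1.02 ± 0.61 (95% interval -2.58 to 0.53, adjusted p = 0.793 with limma) became -1.86 without CD109-/- replicate 1 and -0.18 without CD109-/- replicate 2.

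**Figure D2:**
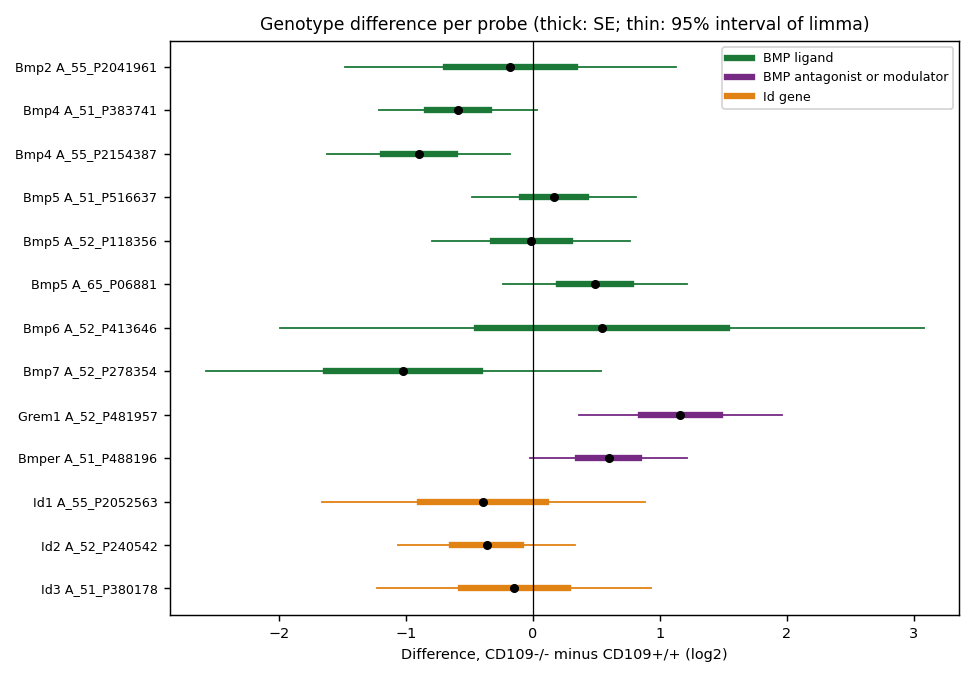
Difference between genotypes on the log2 scale for each member probe, CD109-/- minus CD109+/+, with the SE as a thick bar and limma's 95% interval as a thin line, coloured by role. The intervals of the brighter Bmp4 probe (-1.62 to -0.18) and of Grem1 (0.36 to 1.96) leave out 0, before any adjustment for the number of probes.

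Grem1, whose product Gremlin 1 binds BMP2, BMP4 and BMP7, gave -0.996 and -1.69 in CD109-/- tumours, against -2.51 and -2.50 in CD109+/+ tumours. Both CD109-/- arrays were higher, and the CD109+/+ arrays were nearly equal. The means were -1.34 ± 0.49 in CD109-/- tumours, against -2.50 ± 0.0077 in CD109+/+ tumours (SD, n = 2 each). The difference was 1.16 ± 0.31, a 2.24-fold signal (95% interval 0.36 to 1.96, unadjusted p = 0.0136 and adjusted p = 0.621 with limma). A difference at least this far upward was found for 2.09% of all tested probes. Grem1 differed by 0.82 between females alone, that is without CD109-/- replicate 1, and by 1.51 without CD109-/- replicate 2. With either CD109+/+ array left out the difference was 1.16 or 1.17, with an unadjusted p of 0.0618 or 0.0602 in limma.

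Bmper, which encodes a secreted BMP-binding protein that restrains BMP4 and can also favour its signal depending on dose, gave -0.54 and -0.81 in CD109-/- tumours, against -1.32 and -1.23 in CD109+/+ tumours. The order of the arrays was close to that of Grem1, with CD109-/- replicate 1 the highest. The difference was 0.60 ± 0.24, a 1.51-fold signal (95% interval -0.02 to 1.22, unadjusted p = 0.0559 and adjusted p = 0.736 with limma). Its difference ranged from 0.46 to 0.73 when any 1 array was left out.

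A contrast within each array does not change when 1 constant is subtracted from all values of that array. It can change with background correction or quantile normalization. By this measure the Grem1 and the brighter Bmp4 signal differed unequally between genotypes, by 2.06 on the log2 scale, and Grem1 against the dimmer Bmp4 probe by 1.75. Bmper against the brighter Bmp4 probe gave 1.50. These contrasts are given without a test, since their genes were chosen after their values were seen.

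Markers of several other cell types also had higher values in CD109-/- tumours. For the marker counts that follow, the shares over all genes read by 1 probe were 5.07% higher at an unadjusted p under 0.05 and 20.3% higher without overlap. All 9 fibroblast markers had higher values in CD109-/- tumours, 5 of them at an unadjusted p under 0.05 with limma, and the genotypes did not overlap for 7. Tcf21, counted in both, entered the test only through the CD109-/- arrays. The summed fibroblast signal was 57.0 and 55.0 in CD109-/- tumours, against 34.4 and 32.7 in CD109+/+ tumours, in units of the 75th percentile. All 8 macrophage markers were also higher, 4 of them at an unadjusted p under 0.05 with limma and 6 without overlap. Their sums were 47.7 and 43.1 in CD109-/- tumours, against 31.6 and 27.0 in CD109+/+ tumours. The macrophage marker Cd163, part of each of these counts, was well above background only in CD109-/- tumours. It entered the test only through those arrays, so its part cannot serve as support. Of the 4 mesothelial markers 3, Upk3b, Wt1 and Lrrn4, were higher without overlap. All 3 entered the test only through the CD109-/- arrays, so this count cannot serve as support. Wt1 and Lrrn4 were well above background only in CD109-/- tumours, and were at least 3.95-fold and 1.84-fold higher there. The brightest mesothelial marker, Msln, varied within both genotypes instead, and the summed mesothelial signals overlapped at 44.7 and 8.11 in CD109-/- tumours, against 66.7 and 10.4 in CD109+/+ tumours. Of the 8 endothelial markers, 8 had higher values, 1 at an unadjusted p under 0.05 with limma and 4 without overlap. Their median difference was 0.30, with overlapping sums of 16.1 and 20.2 in CD109-/- tumours, against 18.6 and 13.7 in CD109+/+ tumours. Of 7 T and NK cell markers 6 were tested and 5 were higher, all 5 without overlap and 4 at an unadjusted p under 0.05 with limma. The list's sums were 3.90 and 3.42 in CD109-/- tumours, against 3.18 and 2.94 in CD109+/+ tumours. Of the 4 club cell markers 3 were higher, 2 of them at an unadjusted p under 0.05 with limma and without overlap. The 4 summed to 225 and 301 in CD109-/- tumours, against 82.2 and 144 in CD109+/+ tumours. Smooth muscle, alveolar type 1 and B cell lists had 0 markers at that level and median differences of 0.40, 0.09 and -0.17. Of the 6 smooth muscle markers 5 were higher, 4 of them without overlap. Their sums overlapped at 26.1 and 18.6 in CD109-/- tumours, against 20.0 and 16.4 in CD109+/+ tumours. The alveolar type 1 and B cell lists had 0 markers higher without overlap. The B cell list had 2 lower without overlap, against 18.2% of all genes. No marker of these lists was below background on every array. The part of these cell types in the Grem1 and Bmper differences was not tested.

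**Figure D3:**
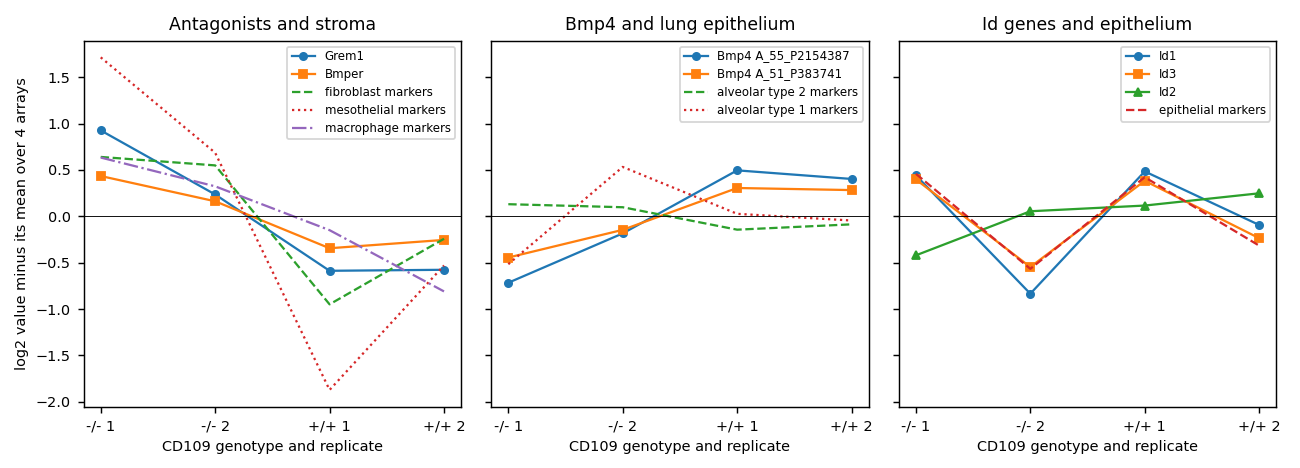
Log2 values on the 4 arrays, each minus its own mean over the arrays, for member probes (solid lines) and for the median of marker lists (broken lines), with the CD109-/- arrays left of the CD109+/+ arrays. Grem1 and Bmper run with the fibroblast and macrophage medians, and Id1 and Id3 run with the epithelial median. Both Bmp4 probes lie lower in CD109-/- tumours, where the alveolar type 2 median per array (6.84 and 6.81, against 6.57 and 6.62) lies higher. The median difference of the alveolar type 2 genes (-0.18) and their summed signal lie lower, so the direction of that list depends on the summary.

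The Id genes did not share one pattern. Id1, an Id family gene with a strong response to BMP in many cells, gave 4.95 and 3.67 in CD109-/- tumours, against 4.99 and 4.41 in CD109+/+ tumours. Id3, a close relative of Id1, gave 2.02 and 1.07 in CD109-/- tumours, against 2.00 and 1.38 in CD109+/+ tumours. For both genes each genotype held 1 higher and 1 lower array, and the higher arrays of the 2 genotypes were nearly level. The differences of -0.39 ± 0.50 for Id1 (95% interval -1.66 to 0.88) and -0.15 ± 0.42 for Id3 (95% interval -1.23 to 0.93) were within their errors.

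Id2, which is also prominent in lymphoid cells and at the growing tips of the embryonic lung, gave 3.67 and 4.15 in CD109-/- tumours, against 4.21 and 4.34 in CD109+/+ tumours. The CD109-/- values were both lower, with the nearest arrays of the 2 genotypes almost level. The Id2 difference was -0.37 ± 0.27 (95% interval -1.06 to 0.33, adjusted p = 0.834 with limma), and it shrank to -0.13 without CD109-/- replicate 1. CD109-/- replicate 1 was the lowest array for Id2 and for Bmp4, and not for Id1 or Id3.

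Leaving out CD109-/- replicate 2 turned the sign of Id1 to 0.25 and of Id3 to 0.32. In females alone, without CD109-/- replicate 1, Id1 differed by -1.03 and Id3 by -0.62. The epithelial marker list, made of Epcam, Cdh1, Cldn7 and 3 keratin genes, stood highest on the same arrays. Its median was 4.89 and 3.87 in CD109-/- tumours, against 4.85 and 4.12 in CD109+/+ tumours, and its sum was 396 and 258 in CD109-/- tumours, against 563 and 306 in CD109+/+ tumours. Its part in the Id1 and Id3 values was not tested.

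**Figure D4:**
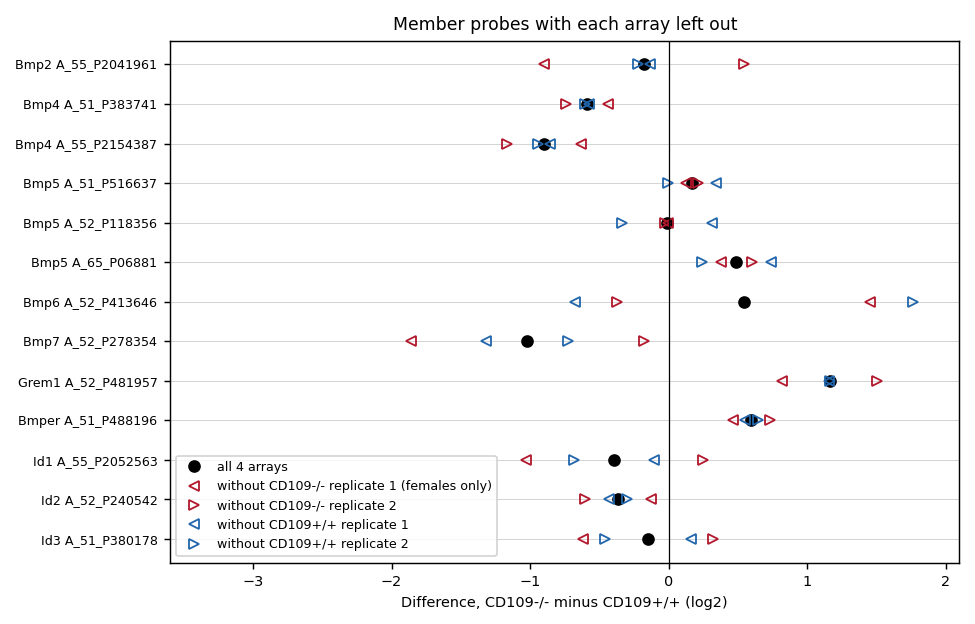
Difference of each member probe on the log2 scale with all 4 arrays (black) and with each array left out in turn (triangles, red for a CD109-/- and blue for a CD109+/+ array). Both Bmp4 probes stay below 0 and Grem1 and Bmper above 0 in every case, whereas Bmp2, Bmp6, Id1, Id3 and 2 Bmp5 probes cross 0.

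Likeness of pattern was measured as the root mean square distance between centred log2 values over the 4 arrays, among genes whose range over the arrays was at least 0.5 times that of the gene in question. Among 7318 such genes Id3 ranked 80 in closeness to Id1 (distance 0.170), Bmp2 ranked 174 and Id2 ranked 3062. Among the nearest were Tes, a focal adhesion protein (0.0386), and Pfkp, a phosphofructokinase of glycolysis (0.0487). Among 6060 genes compared with Grem1, Bmper ranked 455 (distance 0.320) and Bmp4 ranked 5194 (1.12). The nearest were Plek, a protein of platelets and leukocytes (0.0293), the innate immune receptor gene Tlr2 (0.0363) and the chemokine gene Cxcl14 (0.0525). With only 4 arrays many genes lie close to any pattern.

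The wider pathway was read from lists of 55 further genes, of which 45 were tested, each by its brightest tested probe. At an unadjusted p under 0.05 there were 4, of which 2 had higher and 2 lower values in CD109-/- tumours, against 7.55% of all genes read by 1 probe (5.07% higher and 2.48% lower). The 2 higher genes, Chrdl1 and Id4, were not well above background in CD109+/+ tumours. They entered the test only through the CD109-/- arrays, so their count cannot serve as support. The genotypes did not overlap for 14 genes that were higher and 7 that were lower, against 20.3% and 18.2% of all genes, 38.6% in either direction. Chrdl1 and Id4 are among the 14, and the same limit holds for them there. The median difference was 0.09 over the 45 genes and 0.00327 over all 16443 genes. The number passing limma's threshold after adjustment was 0 of 45, as for all genes (0% called), and the lowest adjusted p was 0.550.

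Among 17 further secreted antagonists and modulators 13 were tested, 9 with higher values in CD109-/- tumours. Of the 13, 6 were higher without overlap and 2 lower, against 20.3% and 18.2% of all genes. The 6 include Chrdl1, whose part in this count cannot serve as support. Their median difference was 0.25. Chrdl1, which encodes the BMP4 antagonist chordin-like 1, had the lowest p. Its brightest probe, A_55_P2923106, gave -4.85 and -3.87 in CD109-/- tumours, against -7.79 and -6.54 in CD109+/+ tumours. On both CD109+/+ arrays all 3 Chrdl1 probes were not well above background, and on both CD109-/- arrays all 3 were well above it. Chrdl1 was at least 2.60-fold higher in CD109-/- tumours by this probe, and at least 1.90-fold and 1.84-fold higher by the other 2 (adjusted p = 0.550, 0.295 and 0.550 with limma). These bounds hold for the processed signal only. With normexp background correction the fitted difference of the brightest probe was 0.42 on the log2 scale. Chrdl1 entered the test only through the CD109-/- arrays, so its direction cannot serve as support beside Grem1 and Bmper. Genes of this list well above background on every array went both ways. Mgp and Crim1 differed by 0.58 and 0.57, and noggin (Nog) and chordin (Chrd) by -0.09 and -0.29.

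Of 11 receptors and co-receptors 10 were tested. By their brightest probes the median difference was 0.14, with 0 at an unadjusted p under 0.05 with limma. Of the 10, 4 were higher without overlap and 1 lower, against 20.3% and 18.2% of all genes. The receptor gene Acvrl1 was higher without overlap at both probes. It differed by 0.48 ± 0.30 at the brighter and 0.84 ± 0.25 at the other (unadjusted p = 0.167 and 0.0192 with limma). Bmpr2, the type II receptor gene mutated in heritable pulmonary arterial hypertension, gave 2.73 and 2.88 in CD109-/- tumours, against 2.40 and 2.33 in CD109+/+ tumours. Its difference was 0.44 ± 0.23 (adjusted p = 0.779 with limma). The co-receptor gene Rgma differed by -0.59 ± 0.27 at its brighter probe and by 0.65 ± 0.23 at its other probe. The unadjusted p was 0.0769 and 0.0366 with limma, so its direction is not settled. The receptor gene Bmpr1b gave -5.37 and -3.26 in CD109-/- tumours, against -5.26 and -5.40 in CD109+/+ tumours, so that its difference of 1.01 ± 0.70 came from CD109-/- replicate 2.

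Of 9 SMAD and inhibitor genes all were tested, 7 with lower values and a median difference of -0.26. Smurf1, a ubiquitin ligase that marks BMP receptors and SMADs for degradation, gave 3.20 and 2.68 in CD109-/- tumours, against 4.10 and 3.51 in CD109+/+ tumours. Its difference was -0.86 ± 0.33 (unadjusted p = 0.0490 and adjusted p = 0.728 with limma). The unadjusted p of Smurf1 in limma stood on either side of 0.05 by setting. It was 0.0776 with scaling to the median, 0.0528 with 1 probe a gene and 0.0323 with quantile normalization. With 1 array left out the difference ranged from -1.16 to -0.57. The signal carriers Smad1 and Smad5 differed by -0.34 and 0.10, and the feedback inhibitor Smad6, itself a BMP target, by -0.26 ± 0.26. Smad9 gave -1.21 ± 0.69 with overlapping genotypes, and was not well above background on CD109-/- replicate 1.

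**Figure D5:**
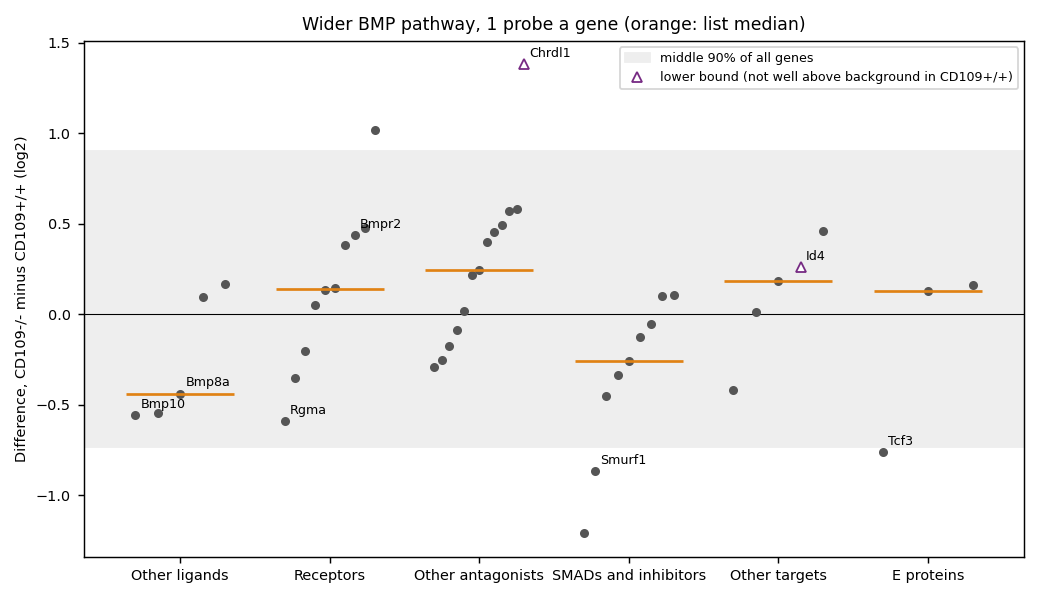
Difference between genotypes on the log2 scale, CD109-/- minus CD109+/+, for the tested genes of the wider BMP pathway by role, 1 probe a gene, with each list's median in orange and the range between the 5th and 95th percentiles of all genes (-0.73 to 0.90) in grey. Triangles stand at the lower bound for genes not well above background in CD109+/+ tumours, Chrdl1 being the only gene of its list above the grey band.

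Among 9 further ligands 5 were tested, with a median difference of -0.44 and 0 at an unadjusted p under 0.05 with limma. Bmp10, best known from the heart, gave -5.35 and -4.90 in CD109-/- tumours, against -4.54 and -4.59 in CD109+/+ tumours, and differed by -0.56 ± 0.26. These values lie close to the detection limit, and with normexp the fitted difference was -0.21. Bmp8a differed by -0.44 ± 0.31. Of 6 further BMP targets 5 were tested, with a median difference of 0.18. Id4, the remaining Id gene, was too dim to be called above background in CD109+/+ tumours. By the processed signal it was at least 1.20-fold higher in CD109-/- tumours (adjusted p = 0.686 with limma). With normexp its fitted difference was -0.011, so this bound holds for the processed signal only and its direction depends on the background correction. Msx1 and Msx2, homeobox targets of BMP in the embryo, differed by 0.18 ± 0.23 and 0.01 ± 0.26.

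The E proteins are the partners that Id proteins sequester. Tcf3, which encodes E2A, gave 0.28 and 0.18 in CD109-/- tumours, against 1.04 and 0.95 in CD109+/+ tumours. Both CD109-/- values were lower and each genotype was tight, with a difference of -0.76 ± 0.23 (unadjusted p = 0.0201 and adjusted p = 0.638 with limma). The other Tcf3 probe gave -0.68 ± 0.25. The E protein genes Tcf4 and Tcf12 differed by 0.13 ± 0.37 and 0.16 ± 0.23.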

How the data were processed

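Total RNA of whole lung tumours, 2 samples per CD109 genotype, was used for Cy3 labelling (input 100 ng), per the labels' protocols. Scans were quantified by the authors in Agilent Feature Extraction 12.1.0.3, per the file headers, and the deposited scanner files give linear intensity values: a processed signal, background-subtracted and detrended within the array, and median spot and background signals. A further deposited table equals that processed signal times 1 constant per array (1.04 and 1.08 for CD109-/- replicates 1 and 2, 1.19 and 1.21 for CD109+/+ replicates 1 and 2), was not centred, and served as an alternative. The medians of its columns were 59.5, 69.2, 58.8 and 76.1 in the same order. How these constants were set is not stated in the labels or headers.

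Control spots and spots marked as outliers (66, 73, 58 and 71 in that order) were dropped and spots of a probe averaged, which left out 11 of 56605 probes. No spot was saturated, and the number of arrays limits the precision. The processed signal was put on a log2 scale and the 75th percentile of its array subtracted. A probe was tested if both arrays of either genotype had it well above background. The test used limma 3.58.1 (lmFit, eBayes) under R 4.3.3, without covariates (2 residual and 3.02 prior degrees of freedom), with Benjamini-Hochberg adjustment over all tested probes. Where a probe was dim in a whole genotype, the fold is a lower bound for the processed signal, not for other background corrections. It is set against the array's dimmest detected probe or the probe's own signal if that was brighter. Probes were named by accession through a RefSeq table of GRCm38.p6 (34558 probes of 23784 genes). The array design names another build, so gene coordinates were not used to name probes. The start regions are given with GRCm38.p6 coordinates as reference sequence only. The fit was tested on simulated data.

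The genes named were all member probes and, per wider list, the members at an unadjusted p under 0.05 or else the 2 with the largest absolute moderated t, and the 3 genes nearest in pattern to Id1 and to Grem1, of which 1 is not reported here. A few others were named for comparison after their values were seen. The members and lists were chosen with earlier results of these data known. Alternatives were normexp (on median spot and background signals), quantile and median scaling, the authors' values, other filters, a mean-variance trend, a replicate block, sex as a covariate, 1 probe a gene and leaving out each array.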

Additional observations from a re-analysis of the deposited data

How the results depend on the processing

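No member probe passed an adjusted p of 0.05 in limma under any of the 10 other settings or with any 1 of the 4 arrays left out, nor an adjusted p of 0.1 with all 4. The number at an unadjusted p under 0.05 was 2, and it was 4 with normexp, 4 with sex as a covariate, 3 with a mean-variance trend, and between 0 and 4 with 1 array left out. It was 0 without CD109+/+ replicate 1 or 2 and 4 without CD109-/- replicate 1, where the lone array is assumed to vary like the other genotype. Only 1 male was hybridised, so sex as a covariate gives the same differences as leaving that array out. With the replicate block the number was 2, for the same probes. Same-numbered arrays deviated together (correlation 0.347 over probes, a hint from the data). The numbers follow accession order, and the labels do not say whether they pair samples. With 1 array left out the differences ranged from -0.90 to 0.54 for Bmp2, from -0.0067 to 0.34 for Bmp5 probe A_51_P516637, from -0.34 to 0.31 for Bmp5 probe A_52_P118356, from -0.68 to 1.76 for Bmp6, from -1.03 to 0.25 for Id1 and from -0.62 to 0.32 for Id3. Bmp5 probe A_52_P118356 gave 0.030 with quantile normalization and 0.027 with scaling to the median, and Id4 gave -0.011 with normexp. The 1.76 of Bmp6 is set against CD109+/+ replicate 1 alone, where the probe was not well above background, and is no measured size. The cause of these changes was not tested. All other differences of member probes and named pathway genes kept their sign, 277 of 288 in all. Without CD109-/- replicate 2 limma called 2 probes of the whole array, 0 of them members. Dim probes such as Bmp6, Bmp10, Chrdl1 and Id4 are limited by their signal over background. No slide block was run, since all arrays lay on 1 slide.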
